A study of Arabidopsis thaliana with 9 samples.

Results

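The comparison described here sets 3 libraries of wild-type Arabidopsis thaliana seedlings treated with riboflavin against 3 libraries of untreated seedlings. They are 6 of the 9 RNA libraries of the study and were chosen by their labels. The other 3 come from melinoe, an EMS mutant altered in FMN/FHY, the gene of an enzyme that converts riboflavin to the cofactor FMN and hydrolyses FMN back. Both groups are of the accession Col-0 and were grown for 6 days on plates of MS medium with 1% sucrose, in days of 16 h light and 8 h dark. The treated group had riboflavin for 8 h of the dark period. Its dose is 0.6 mM in the sample labels and 0.2 mM in the text on the study's design, and the light is 150 µmol per square metre and second in the growth protocol and 100 in that text. Neither source gives the hour at which untreated seedlings were collected, or a mock treatment, so riboflavin and hours of darkness cannot be told apart in any result below. Whole seedlings were extracted, and in such bulk RNA fewer cells of a type and less RNA per cell cannot be told apart.

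Riboflavin is the vitamin from which plants make FMN and FAD, the cofactors of many oxidoreductases. In light it is also a photosensitiser that passes energy or electrons to oxygen. Seedlings under stress or short of carbon are known to lower growth programmes such as wall loosening, lipid synthesis and cell division, and to raise nutrient recovery, protein turnover and the respiration of amino acids and fatty acids.

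The libraries held 20677747 to 21421418 counts. The correlation of log2 counts across genes was at least 0.997 within a group and at most 0.935 between groups, a description only, since genes are not replicates. Of 24249 genes in the table, 20356 had enough reads to be tested. Riboflavin-treated seedlings had 7495 genes higher (36.8%) and 7605 lower (37.4%) at a Benjamini-Hochberg adjusted p under 0.05 in the edgeR quasi-likelihood test, which is what a call means below. Of these, 1567 were called and at least doubled (7.7%) and 2024 were called and at least halved (9.94%). The libraries of the groups did not overlap in 15388 genes (75.6%). Most genes were therefore called, and the counts of a gene list are to be read against these percentages. The median log2 fold change of all genes tested was -0.003 (-0.066 under upper quartile scaling).

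Across 50 gene lists, genes of sulfur limitation, low oxygen, abscisic acid and branched-chain amino acid breakdown had the highest medians. Over genes with a mean count of at least 50, abscisic acid had 0.50, below NAC factors with 0.86 and branched-chain amino acid breakdown with 0.70. Apart from leaf mesophyll markers, genes of the cuticle, of wall loosening and of plastid fatty acid synthesis had the lowest.

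**Figure D1:**
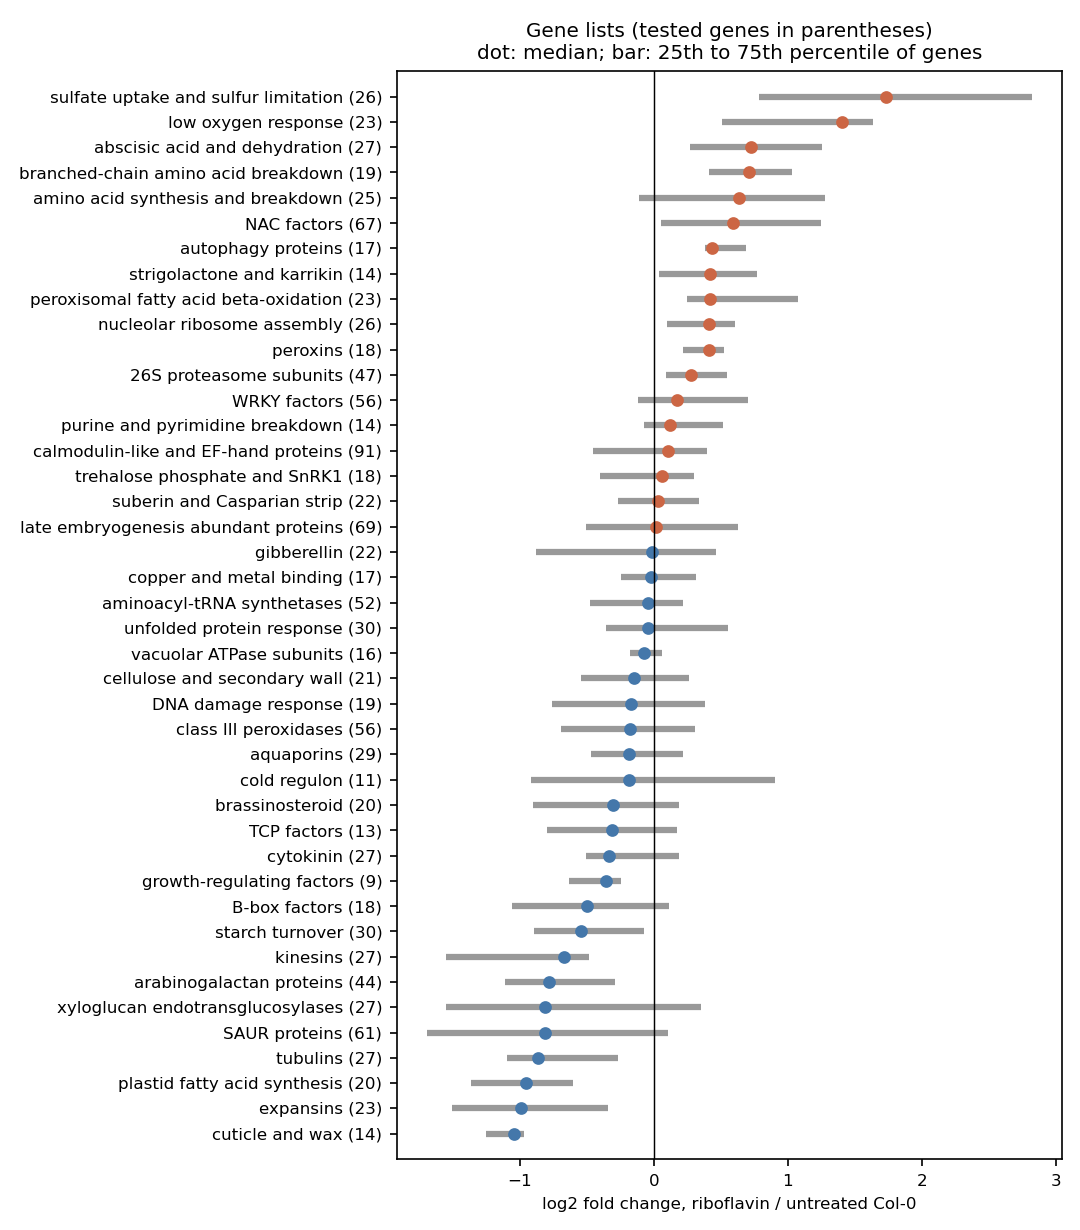
Median log2 fold change (dot) and 25th to 75th percentile of genes (bar) for the gene lists, riboflavin against untreated Col-0. Sulfur limitation has the highest median, 1.73, and cuticle and wax the lowest drawn, -1.04; the medians of the gibberellin, copper, suberin, trehalose, late embryogenesis and cellulose lists change sign with another processing or with 1 library left out.

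Genes of sulfate uptake, sulfate assimilation and the response to sulfur limitation rose almost without exception. Of 26 genes, 25 were higher and 1 lower, 19 at least doubled, and the median log2 fold change was 1.73. Plants short of sulfur draw sulfate from the medium and from the vacuole, reduce it for cysteine synthesis and break down sulfur compounds such as glucosinolates and glutathione. Their summed level was 2397 to 2468 CPM (counts scaled to a common library size) in the untreated libraries and 6372 to 6501 CPM in the treated ones.

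The widest changes were in BGLU28 and BGLU30, beta-glucosidases that split glucosinolates under sulfur shortage. BGLU28 (AT2G44460; TAIR10.1 chromosome 2, 18346306 to 18350026) had 4, 7 and 3 counts in the untreated libraries, or 0.184, 0.330 and 0.141 CPM, and 199.5, 197 and 204 CPM in the treated libraries. It was all but undetected without riboflavin, and its expression differed by 9.80 ± 0.097 on the log2 scale (adjusted p = 3.20e-31, edgeR quasi-likelihood test). Here and below, ± after a log2 fold change is that change divided by the square root of the test's F statistic. It approximates a standard error and is likely too small where a group has few counts, as for BGLU28. BGLU28 passed the filter on low counts only through the treated libraries, and for such genes the filter itself favours a higher call. BGLU30 (AT3G60140; TAIR10.1 chromosome 3, 22216540 to 22220824) had 3.92, 4.19 and 4.56 CPM in untreated and 732, 735 and 721 CPM in treated libraries, a log2 fold change of 7.43. LSU1 (AT3G49580; TAIR10.1 chromosome 3, 18374908 to 18375940), a small protein named for its response to low sulfur, had 2.119, 2.02 and 2.35 CPM without and 98.2, 88.6 and 102 CPM with riboflavin. The difference was 5.47 ± 0.084 on that scale (adjusted p = 1.91e-27, edgeR quasi-likelihood test). The related LSU3, LSU2 and LSU4 rose by 4.25, 2.82 and 1.32. SDI1 (AT5G48850; TAIR10.1 chromosome 5, 19805437 to 19807853), which represses glucosinolate synthesis when sulfur is short, had 3.69, 3.63 and 3.38 CPM without and 113, 109.9 and 108 CPM with riboflavin, a log2 fold change of 4.95. In BGLU28, BGLU30, LSU1 and SDI1 every treated library was far above every untreated one.

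The promoters of BGLU28 (chr2:18346056-18346305, plus strand) and SDI1 (chr5:19807854-19808103, minus strand) are shown because they belong to strongly risen genes and hold the letters of the core motif described for sulfur-responsive promoters. They are the 250 bases before the annotated gene start, from the RefSeq TAIR10.1 genome, 5′ to 3′ on the strand of the gene. Capitals mark GAGAC, which reads GTCTC on the other strand.
BGLU28: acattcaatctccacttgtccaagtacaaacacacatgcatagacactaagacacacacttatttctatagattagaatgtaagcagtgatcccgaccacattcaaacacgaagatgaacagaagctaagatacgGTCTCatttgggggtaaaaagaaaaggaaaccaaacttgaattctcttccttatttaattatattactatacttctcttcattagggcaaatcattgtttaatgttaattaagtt
SDI1: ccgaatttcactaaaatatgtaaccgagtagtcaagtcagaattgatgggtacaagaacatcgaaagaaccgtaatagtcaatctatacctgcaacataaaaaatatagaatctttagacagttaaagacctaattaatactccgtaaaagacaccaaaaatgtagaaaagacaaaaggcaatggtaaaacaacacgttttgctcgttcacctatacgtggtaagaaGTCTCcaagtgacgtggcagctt
The match begins 115 bases before the start of BGLU28 and 23 bases before that of SDI1. Both strands were searched in every window. GAGAC was in 6 of the 26 windows of this list (23.1%) and in 5101 of 20227 windows of all tested protein-coding genes (25.2%). The low oxygen list had it in 9 of 23 windows (39.1%) and the abscisic acid list in 6 of 27 (22.2%). In the unfolded protein response list it was in 6 of 30 (20%). LSU1, LSU2, LSU3 and APR3 had no match in this window. Such a match describes the sequence and is not a site of binding.

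Assimilation genes rose less far, from higher levels. APR3, which reduces activated sulfate to sulfite, had 83.0, 85.01 and 79.5 CPM in untreated and 591, 587 and 568 CPM in treated libraries, a log2 fold change of 2.82. APR2 and APR1 rose by 1.67 and 1.28, and the sulfite reductase SIR by 1.21. The serine acetyltransferases, which make the precursor of cysteine, rose by 2.74 (SERAT3;2), 2.16 (SERAT2;1) and 1.21 (SERAT2;2). The ATP sulfurylases APS1 and APS3 rose by 0.60 and 0.53. The glutathione synthesis genes GSH1 and GSH2 rose by 0.48 and 0.53, and GGCT2;1, a gamma-glutamyl cyclotransferase that degrades glutathione, by 3.75. SHM7, a serine hydroxymethyltransferase, rose by 2.79, and AT1G04770 by 1.80. SLIM1, a transcription factor of the sulfur limitation response, rose by 0.64.

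Sulfate transporters did not move as a group. The vacuolar exporter SULTR4;2 rose from 14.9, 16.7 and 14.3 CPM to 61.1, 60.3 and 59.9 CPM, and the root uptake transporter SULTR1;2 rose by 1.44 on the log2 scale. SULTR1;1, another root uptake transporter, had 2.119, 2.69 and 2.54 CPM in untreated and 3.69, 3.22 and 3.13 CPM in treated libraries. Its log2 fold change of 0.45 was called (edgeR quasi-likelihood, adjusted p = 0.01) but not with DESeq2 (adjusted p = 0.0669), without Col-0 replicate A (adjusted p = 0.0607) or without riboflavin replicate A (adjusted p = 0.0538). SULTR2;1, a low-affinity transporter of vascular tissue, fell from 164, 169 and 169.7 CPM to 47.3, 46.7 and 44.8 CPM (log2 fold change -1.86; edgeR quasi-likelihood, adjusted p = 5.84e-24).

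**Figure D2:**
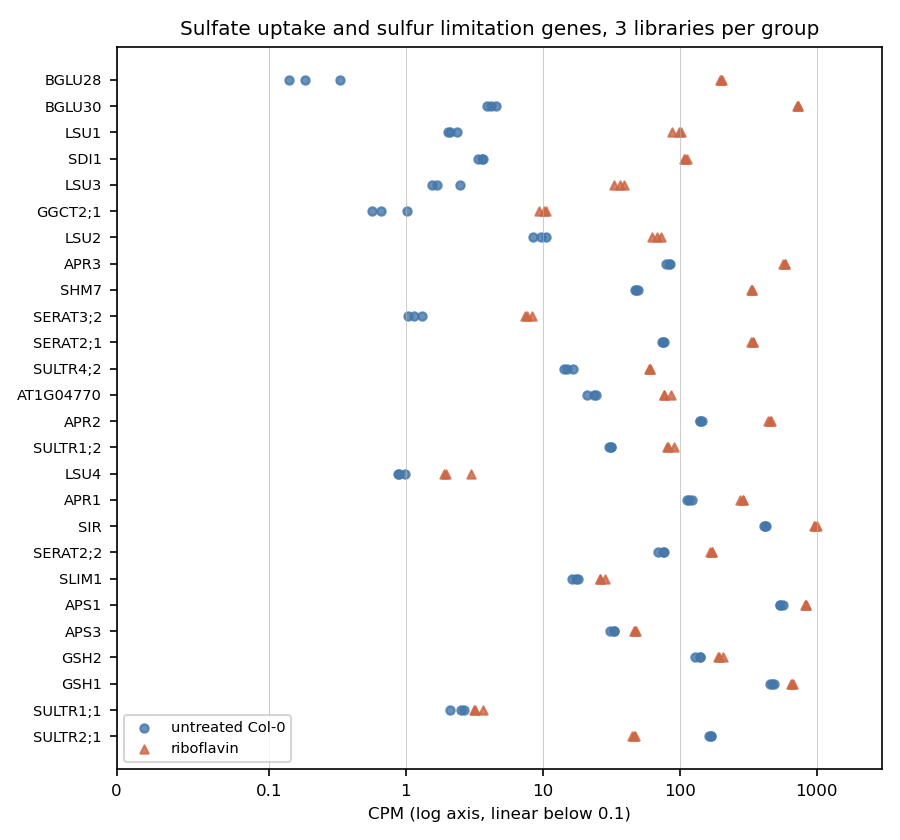
CPM of each sulfur gene in the 3 untreated and 3 riboflavin-treated libraries on a log axis, ordered by fold change. Treated libraries have the higher mean for 25 genes and the lower mean for SULTR2;1, whose log2 fold change is -1.86.

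The mutant shares the untreated Col-0 libraries, so its values are only set beside these. Against Col-0 its log2 fold change was 1.01 for BGLU28, -0.14 for LSU1, -1.11 for SDI1 and -0.004 for APR3. Treated Col-0 and the mutant differed directly in LSU1, at a mean of 96.4 against 1.96 CPM, and in SDI1, at 110.4 against 1.64 CPM (edgeR quasi-likelihood on all 9 libraries, adjusted p = 9.26e-31 and 1.59e-32).

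Genes of the low oxygen response were also mostly higher. Of 23 genes, 19 were higher, 3 lower and 1 was not called, 13 at least doubled, and the median was 1.41. In low oxygen, ERF factors of group VII induce fermentation enzymes, a haemoglobin that scavenges nitric oxide, and feedback regulators. The haemoglobin HB1 (AT2G16060; TAIR10.1 chromosome 2, 6982531 to 6983777) had 191, 187 and 196 CPM in untreated and 1263, 1290 and 1122 CPM in treated libraries. The difference was 2.68 ± 0.045 on the log2 scale (approximate standard error, adjusted p = 1.18e-26, edgeR quasi-likelihood test). The rise of the authors' mean from 317 to 2009 TPM was among the 10 largest of all genes. PDC1, a pyruvate decarboxylase at the start of ethanol fermentation, went from 19.4, 21.1 and 22.1 CPM to 166, 164 and 159.8 CPM, a log2 fold change of 2.97. ADH1, the alcohol dehydrogenase that ends it, went from 79.8, 84.9 and 82.9 CPM to 379, 395 and 384 CPM, a log2 fold change of 2.23. Treated and untreated libraries were apart in HB1, PDC1 and ADH1. PDC2 rose by 1.54, AT4G17260, of the lactate and malate dehydrogenases, by 1.57, and the alanine aminotransferase ALAAT1 by 0.75.

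The ERF factors themselves went different ways. HRE2, which is induced in low oxygen, had 1.66, 2.26 and 2.11 CPM without and 41.7, 45.1 and 43.9 CPM with riboflavin, a log2 fold change of 4.43. Its relative HRE1 was not called, at 23.0 ± 1.30 CPM against 24.4 ± 0.654 CPM (SD, n = 3). The constitutive member RAP2.2 fell by 0.43 on the log2 scale, and RAP2.12 rose by 0.24. PCO1 and PCO2, oxidases that mark these factors for degradation when oxygen is present, rose by 0.83 and 1.52, and HRA1, which restrains RAP2.12, by 1.41. LBD41, a further induced factor, rose by 1.50. AT5G10040, AT1G33055, AT4G27450 and AT3G27220 of this list rose by 2.97, 1.69, 1.48 and 0.97. Of the sucrose synthases, SUS1 rose by 0.55 and SUS4 fell by 0.22. ACO1, of ethylene synthesis, fell by 0.21. In the mutant, beside the same Col-0 libraries, PDC1 had a log2 fold change of 1.36, ADH1 1.45 and HB1 0.74.

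Genes of the unfolded protein response moved in both directions, also among genes of like role. Of 30 genes, 12 were higher, 14 lower and 4 not called. Of the higher ones 7 at least doubled, 0 of the lower ones at least halved, and the median was -0.05. Misfolded protein in the endoplasmic reticulum makes the kinase IRE1 splice the mRNA of BZIP60 and leads BZIP28 to leave the membrane, and both then induce chaperones. BIP3, the inducible Hsp70 chaperone of that compartment, had 8, 6 and 5 counts in untreated libraries and rose from 0.368, 0.283 and 0.235 CPM to 6.22, 6.30 and 6.60 CPM. BIP3 also passed the filter on low counts only through the treated libraries, which favours a higher call. The difference was 4.40 ± 0.206 on the log2 scale (adjusted p = 9.76e-17, edgeR quasi-likelihood test). The approximate standard error is likely too small at these counts. BZIP60 rose from 49.7, 55.7 and 52.2 CPM to 212, 219 and 220.4 CPM, a log2 fold change of 2.05. Gene counts do not tell its spliced from its unspliced form. The oxidase ERO1 rose by 1.27. Of the NAC factors, NAC103 and NAC089 rose by 2.36 and 1.30 and NAC062 fell by 0.55. Of the co-chaperones, ERDJ3A rose by 2.22 and ERDJ3B and P58IPK fell by 0.37 and 0.34. Of the disulfide isomerases, PDIL1-2 rose by 1.01 and PDIL1-1 and PDIL1-3 fell by 0.31 and 0.48.

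Several abundant chaperones of the same compartment were lower. The Hsp90 chaperone SHD went from 401, 401 and 401 CPM to 246, 249.8 and 249.7 CPM, a log2 fold change of -0.69. The lectin chaperones CRT1A, CRT1B and CNX1 had -0.68, -0.66 and -0.49. The constitutive Hsp70 chaperones BIP2 and BIP1 had -0.39 and -0.12; they are near-identical, so the split of reads between them is uncertain. No treated library reached the untreated range for SHD, CRT1A or BIP2. In the mutant, beside the same Col-0 libraries, SHD and CRT1A had log2 fold changes of 0.19 and 0.22, and treated Col-0 differed from the mutant in both (edgeR quasi-likelihood on all 9 libraries, adjusted p = 6.07e-21 and 7.30e-21).

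The promoters of BIP3 (chr1:2931851-2932100, minus strand) and BZIP60 (chr1:16137464-16137713, minus strand), which rose, and of CRT1A (chr1:21092710-21092959, minus strand), which fell, are shown because the same motif stands in all of them. Capitals mark the G-box CACGTG, a palindrome and a form of the ACGT core that many bZIP factors bind; build, window and strand are as above.
BIP3: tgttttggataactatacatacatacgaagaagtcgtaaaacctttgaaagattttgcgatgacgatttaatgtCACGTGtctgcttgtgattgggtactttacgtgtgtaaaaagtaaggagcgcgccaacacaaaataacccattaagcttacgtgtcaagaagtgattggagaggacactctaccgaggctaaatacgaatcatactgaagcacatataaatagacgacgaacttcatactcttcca
BZIP60: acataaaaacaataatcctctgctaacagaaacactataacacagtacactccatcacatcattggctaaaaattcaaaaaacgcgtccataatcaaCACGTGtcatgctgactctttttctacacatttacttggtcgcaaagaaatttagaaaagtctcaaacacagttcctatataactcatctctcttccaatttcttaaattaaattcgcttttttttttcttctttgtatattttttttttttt
CRT1A: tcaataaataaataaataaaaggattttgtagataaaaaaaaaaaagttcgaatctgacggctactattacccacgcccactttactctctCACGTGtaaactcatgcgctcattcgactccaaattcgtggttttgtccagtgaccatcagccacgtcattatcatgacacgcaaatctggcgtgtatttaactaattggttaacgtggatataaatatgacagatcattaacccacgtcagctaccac
The G-box was in 10 of 30 windows of the list (33.3%) and in 1477 of 20227 windows of all genes (7.3%). It was in 4 of the 12 genes called higher and 5 of the 14 called lower. The low oxygen list had the G-box in 4 of 23 windows (17.4%) and the abscisic acid list in 4 of 27 (14.8%). In the sulfur list it was in 1 of 26 (3.85%). It began 176 bases before the start of BIP3, 153 before that of BZIP60 and 159 before that of CRT1A.

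**Figure D3:**
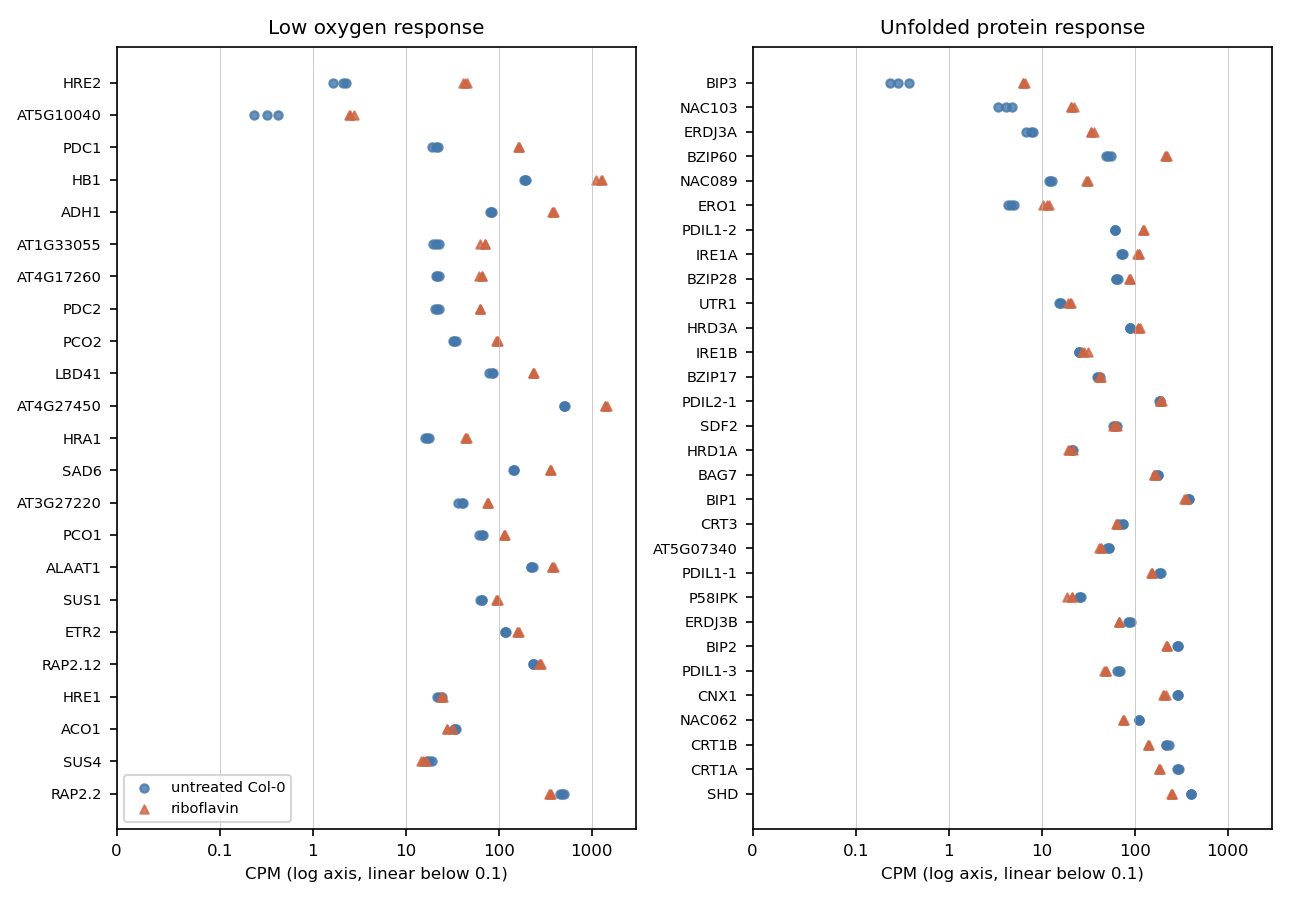
CPM of the low oxygen genes and unfolded protein response genes in the 3 untreated and 3 treated libraries, on log axes, ordered by fold change. HRE2 and BIP3 have the largest log2 fold changes of their lists, 4.43 and 4.40, and SHD the lowest of its list, -0.69.

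Breakdown of amino acids and fatty acids rose on a smaller scale. In the mitochondria, branched-chain amino acids are oxidised by dehydrogenases that pass electrons through the flavoproteins ETF and ETFQO to the respiratory chain, a route used when sugar is short. Of 19 genes of this route, 17 were higher and 2 lower, 5 at least doubled, and the median was 0.71. IVD, the FAD-dependent isovaleryl-CoA dehydrogenase, had 186, 182 and 183 CPM in untreated and 369, 356 and 344 CPM in treated libraries (log2 fold change 0.96; edgeR quasi-likelihood, adjusted p = 9.86e-19). BCAT2, a transaminase of the first step, rose by 1.30, ETFBETA by 1.11, ETFQO by 0.75 and ETFALPHA by 0.47.

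Among 25 other genes of amino acid synthesis and breakdown, 16 were higher, 6 lower and 3 not called, with 10 at least doubled and a median of 0.63. THA1, a threonine aldolase, went from 50.4, 43.8 and 49.7 CPM to 218, 226 and 216 CPM. The tyrosine aminotransferase TAT7 rose by 2.105, and HPD and HGO, which carry on tyrosine breakdown, by 1.65 and 1.44. MGL, a methionine gamma-lyase, rose by 1.73, and the proline dehydrogenase ERD5 by 1.28. The asparagine synthetases moved in opposite directions. ASN1, a gene known to respond to darkness and sugar, rose from 225, 229 and 208 CPM to 954, 947 and 943 CPM. ASN2 fell from 343, 319 and 324 CPM to 127, 125 and 121 CPM, a log2 fold change of -1.40.

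Of 23 genes of peroxisomal fatty acid beta-oxidation and the linked glyoxylate cycle, 18 were higher, 2 lower and 3 not called, with 7 at least doubled and a median of 0.42. ACX2, a flavin-dependent acyl-CoA oxidase of the first step, had 161, 165 and 158 CPM without and 391, 400.1 and 395 CPM with riboflavin. ICL, the isocitrate lyase of the glyoxylate cycle, rose from 30.3, 31.2 and 30.7 CPM to 101, 101 and 99.6 CPM, a log2 fold change of 1.71. Its mutant value beside the same Col-0 libraries was 3.14, and treated Col-0 and the mutant had means of 101 and 271 CPM (edgeR quasi-likelihood on all 9 libraries, adjusted p = 3.80e-25). Of 18 peroxins, which build peroxisomes, 14 were higher and 2 lower, with a median of 0.41; PEX13 rose by 1.03.

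In purine and pyrimidine breakdown, 7 of 14 genes were higher, 3 lower and 4 not called, with a median of 0.12. PYD4 (AT3G08860; TAIR10.1 chromosome 3, 2696199 to 2699420), an aminotransferase assigned to the last step of pyrimidine breakdown, had 6.36, 7.25 and 6.15 CPM in untreated and 307, 297 and 305 CPM in treated libraries. It rose by 5.52 ± 0.056 on the log2 scale (approximate standard error, adjusted p = 3.20e-31, edgeR quasi-likelihood test). PYD1 and PYD3 of earlier steps rose by 0.53 and 0.47. PYD2 had 0.08 and was not called, though without Col-0 replicate B it was, at 0.12 (edgeR quasi-likelihood, adjusted p = 0.0245). The xanthine dehydrogenase genes moved apart. XDH1 (AT4G34890) rose from 90.6, 92.7 and 98.1 CPM to 261, 270.1 and 269.8 CPM, and XDH2 (AT4G34900) fell from 17.0, 15.6 and 16.2 CPM to 3.01, 2.40 and 2.94 CPM. They are close copies, so the split of reads between them is uncertain.

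Protein turnover rose broadly and by little. Of 47 genes annotated to the proteasome, 35 were higher, 4 lower and 8 not called, with a median of 0.28 and 2 at least doubled. The ATPase RPT3 went from 184, 204 and 181 CPM to 419, 437 and 454 CPM (log2 fold change 1.20; edgeR quasi-likelihood, adjusted p = 1.94e-19). The proteasome activator PA200 rose by 1.02. The polyubiquitin genes UBQ3 and UBQ10 were among the 10 largest rises of the authors' mean TPM, a unit scaled for transcript length, from 1216 to 3016 and from 2035 to 3837 TPM; their repeats make the split of reads uncertain. Of 17 genes annotated to autophagy, 15 were higher, 1 lower and 1 not called, with a median of 0.43. All 9 tested ATG8 genes, whose proteins coat the autophagosome membrane, were higher, with a median of 0.92; this group was formed after the data were seen. ATG8H had the largest rise of them, from a mean of 42.2 to 154 CPM (log2 fold change 1.87), and ATG8C the smallest, 0.39.

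The listed nucleolar genes and the ribosomal protein genes went in different directions. Of 26 genes of nucleolar ribosome assembly, 18 were higher, 1 lower and 7 not called, with a median of 0.41. Annotated process terms, picked after the data were seen, did not share this rise. Genes of rRNA processing had 11 higher and 7 lower of 26, with a median of 0.10. Pseudouridine synthesis had 3 higher and 8 lower of 18 (median -0.20), and ribosome biogenesis 19 higher and 67 lower of 100 (median -0.37). The nucleolin NUC2 rose from 4.42, 3.91 and 3.94 CPM to 9.08, 10.2 and 9.63 CPM, and NUC1, the more abundant nucleolin, by 0.38. REIL1 and REIL2, which mature the large subunit in the cytosol, rose by 0.99 and 0.85. Of 148 cytosolic ribosomal protein genes, 107 were lower and 24 higher, with a median of -0.33 and 6 at least halved. Of 40 plastid-located ones, 29 were lower and 4 higher, with 19 at least halved and a median of -0.92. Of 8 located to mitochondria, 5 were higher and 3 lower, with a median of 0.25. Many cytosolic ribosomal proteins have near-identical copies, and these groups by place were formed after the data were seen. Of 52 aminoacyl-tRNA synthetases, 13 were higher, 20 lower and 19 not called, with a median of -0.05.

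Genes of plastid fatty acid synthesis and of the cuticle were lower almost throughout. Genes annotated to phospholipid synthesis, a term picked after the data were seen, had 4 higher and 8 lower of 19 (median -0.07). Plastids make fatty acids by carboxylating acetyl-CoA and extending it on an acyl carrier protein. Of 20 genes of this pathway, 19 were lower, 0 higher and 1 was not called, 10 at least halved, and the median was -0.96. MOD1, the enoyl reductase of each extension round, went from 115, 118 and 117 CPM to 39.5, 42.7 and 40.9 CPM (log2 fold change -1.51; edgeR quasi-likelihood, adjusted p = 2.12e-21). The condensing enzyme KAS1 had -1.41, the biotin carrier subunits CAC1 and BCCP2 -1.35 and -1.47, and the plastid desaturases FAD8, FAD6 and FAD7 -1.57, -1.34 and -1.01. The stearoyl desaturase SSI2 fell by 0.13. WRI1, a transcription factor that activates the pathway, was not called, at 5.04 ± 0.690 CPM against 6.01 ± 0.517 CPM (SD, n = 3). It was called higher without Col-0 replicate C, at a log2 fold change of 0.34, and without riboflavin replicate C, at 0.32 (edgeR quasi-likelihood, adjusted p = 0.0258 and 0.0318).

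All 14 tested genes of cuticle and wax were lower, 9 at least halved, with a median of -1.04; 3 further loci of the list were not tested. The cuticle is the layer of cutin and wax that seals the shoot surface. BDG1, needed for its formation, had 23.9, 22.5 and 23.6 CPM without and 4.08, 3.36 and 4.40 CPM with riboflavin, a log2 fold change of -2.56. GPAT8, which makes cutin precursors, had -2.02. CER6, which extends fatty acids for wax, went from 240.3, 246 and 249 CPM to 102, 103 and 108 CPM, and in the mutant, beside the same Col-0 libraries, it had a log2 fold change of 0.57. MYB96, a factor that activates wax genes, had -1.07. The family of 3-ketoacyl-CoA synthases had 14 of 15 genes lower and 0 higher, with a median of -0.92. Genes of suberin and the Casparian strip, the barriers of roots, had 5 higher, 8 lower and 9 not called of 22; the fatty acyl reductase FAR1 had -2.04.

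Genes that loosen and rebuild the growing wall were mostly lower. Expansins loosen walls without cutting their polymers, and xyloglucan endotransglucosylases (XTH) cut and rejoin the polymer that coats cellulose. Of 23 expansins, 18 were lower and 5 higher, 11 at least halved, and the median was -0.99. EXPA8 went from 38.9, 35.2 and 39.4 CPM to 3.79, 5.29 and 4.74 CPM (log2 fold change -3.04; edgeR quasi-likelihood, adjusted p = 1.35e-21). EXPA5 had -3.16, whereas EXPA17 rose by 2.41.

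XTH genes had 16 of 27 lower, 7 higher and 4 not called, with 10 at least halved, 4 at least doubled and a median of -0.81. XTH7 (AT4G37800; TAIR10.1 chromosome 4, 17775370 to 17777445) belonged to the 15 genes that fell furthest, going from 206, 212 and 216 CPM to 16.3, 17.1 and 19.4 CPM, a change of -3.59. XTH4 had -2.66 and XTH8 -2.67. XTH24 moved the other way, from 969.5, 865 and 968 CPM to 2579, 2237 and 2536 CPM, and XTH11 rose by 3.32. The summed level of the family was 3687 to 3880 CPM in untreated and 3629 to 4015 CPM in treated libraries, so it overlapped between the groups although most members were lower. In the mutant, beside the same Col-0 libraries, XTH7 had a log2 fold change of 0.87.

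Arabinogalactan proteins, glycoproteins of the cell surface, had 34 of 44 lower and 3 higher, with 17 at least halved and a median of -0.78. FLA1 fell from 54.1, 55.8 and 56.1 CPM to 8.31, 7.93 and 7.97 CPM. Cellulose synthases of the primary wall fell by less, CESA1, CESA3 and CESA6 having -0.63, -0.60 and -0.46. Of those of the secondary wall, CESA8 rose by 0.34, CESA7 had 0.05 and was not called, and CESA4 rose by 0.20. The whole list of cellulose and secondary wall genes had 6 higher, 10 lower and 5 not called of 21. Class III peroxidases, which cross-link or loosen walls, had 16 higher and 27 lower of 56, with a median of -0.18.

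Genes of the microtubule array, which guides cellulose deposition and moves chromosomes, fell. Of 27 genes annotated as tubulins or tubulin-related, 23 were lower and 2 higher, with 12 at least halved and a median of -0.87. TUB1 went from 92.3, 89.8 and 91.0 CPM to 21.03, 22.2 and 22.8 CPM; tubulin genes are close paralogs, and how reads were divided between copies is uncertain. Of 27 kinesins, the motors of microtubules, 25 were lower and 1 higher, with 12 at least halved and a median of -0.67. KINESIN-12B, of the cell plate array in dividing cells, went from 7.51, 7.39 and 8.36 CPM to 1.85, 1.87 and 2.201 CPM. A family annotated as ATP-binding microtubule motors had the lowest median of 273 annotation families, -1.16, with 13 of 15 lower and 2 higher. Genes annotated to microtubule-based movement had 40 of 45 lower and 1 higher, a term picked after the data were seen.

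SAUR genes, short-lived products of auxin response in elongating cells, had 36 of 61 lower, 11 higher and 14 not called, with 30 at least halved and a median of -0.81. Most have few reads. Among the 24 with a mean count of at least 50, 9 were higher and 8 lower, and the median was -0.00, so the low median was not seen in the better covered genes. Aquaporins, the water channels of cell and vacuole membranes, had 17 lower and 7 higher of 29, with a median of -0.18. DELTA-TIP, a vacuolar one, fell from 2027, 2003 and 1921 CPM to 789, 798 and 789 CPM, and SIP1;2 rose from 2.07, 2.17 and 2.49 CPM to 18.0, 17.3 and 16.3 CPM. Growth-regulating factors had 5 of 9 lower and 1 higher, and TCP factors 6 lower and 4 higher of 13.

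**Figure D4:**
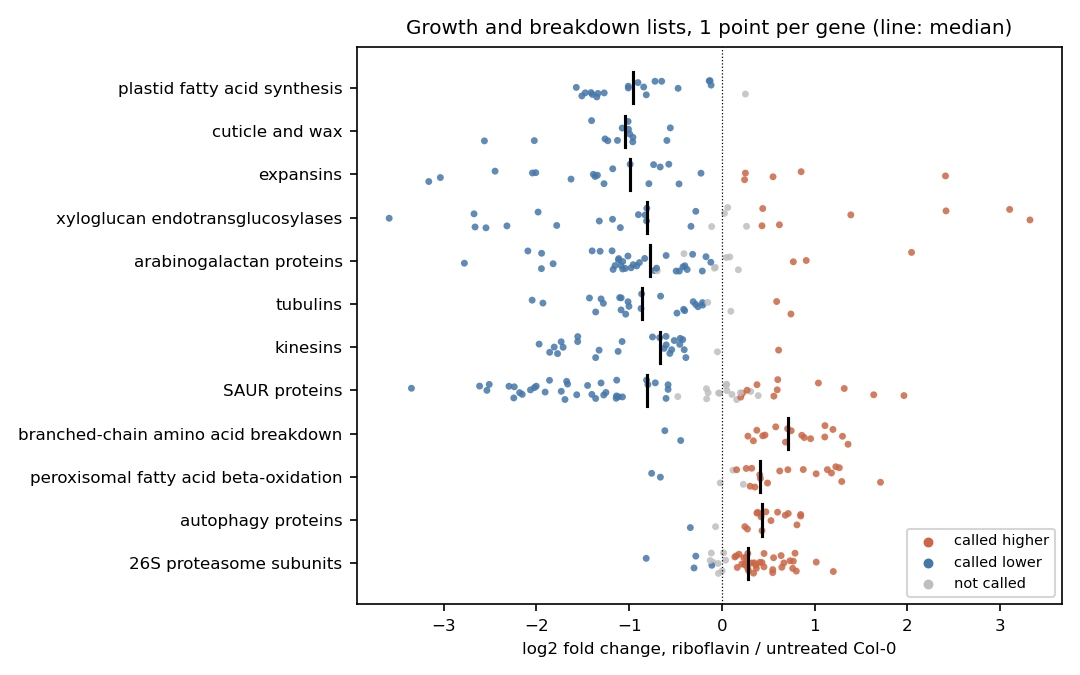
Log2 fold change of every tested gene (points) in lists of lipid synthesis, wall, cytoskeleton and growth and in lists of breakdown, coloured by call, with the median as a line. Cuticle and wax have a median of -1.04 and kinesins of -0.67, against 0.28 for the proteasome and 0.71 for branched-chain amino acid breakdown.

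Starch genes had 21 of 30 lower and 5 higher, with 6 at least halved and a median of -0.54. ADG1, the small subunit of the enzyme that makes ADP-glucose, fell from 79.1, 75.3 and 75.3 CPM to 31.6, 28.5 and 28.0 CPM. AMY1, an alpha-amylase, rose from 1.98, 2.17 and 1.83 CPM to 9.42, 7.83 and 9.20 CPM. Of 18 genes of trehalose phosphate and SnRK1, signals of sugar supply and demand, 8 were higher, 7 lower and 3 not called. Among them the phosphatases TPPI and TPPB had -1.65 and -1.38, and TPS11 rose by 0.91.

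Hormone lists moved unequally. Abscisic acid and dehydration genes had 21 of 27 higher, 4 lower and 2 not called, with 12 at least doubled and a median of 0.72. Over the 24 with a mean count of at least 50, 18 were higher and 4 lower, and the median was 0.50. Phosphatases that switch off the signal were among them: HAI1 went from 9.30, 7.54 and 8.03 CPM to 28.0, 26.96 and 27.1 CPM, and HAI2, ABI2 and HAB1 rose by 1.88, 1.26 and 1.03. RAB18, a dehydrin, rose by 2.07. NCED3, of the rate-limiting step of synthesis, fell by 0.77, and AAO3, of the last step, rose by 1.22. Of the hydroxylases that inactivate the hormone, CYP707A2, CYP707A1 and CYP707A4 rose by 2.05, 1.21 and 1.17, while CYP707A3 fell from 76.5, 74.8 and 79.4 CPM to 18.4, 22.4 and 22.1 CPM. The letters ACGTGT, on either strand, were in 8 of 27 promoter windows of this list (29.6%) and in 2254 of 20227 of all genes (11.1%). They were not particular to this list, being in 10 of 30 windows of the unfolded protein response list (33.3%). The low oxygen list had them in 4 of 23 windows (17.4%) and the sulfur list in 3 of 26 (11.5%).

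Strigolactone and karrikin genes had 10 of 14 higher, 2 lower and 2 not called, with a median of 0.42. AT3G24420, an alpha/beta hydrolase, rose from 3.73, 4.47 and 3.66 CPM to 36.5, 32.6 and 35.1 CPM, and MAX4, of strigolactone synthesis, rose by 1.55. The karrikin receptor KAI2 fell by 0.64, and its strigolactone relative D14 rose by 0.72. Brassinosteroid genes had 11 of 20 lower and 6 higher, with a median of -0.31 that was -0.12 over the 17 with a mean count of at least 50. The growth-promoting factors PRE5 and PRE1 had -3.80 and -1.82, PRE5 at 63, 49 and 67 counts in untreated libraries, and the receptor BRL3 rose by 1.34.

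Gibberellin genes had 9 higher and 9 lower of 22. The DELLA repressors GAI, RGA, RGL1 and RGL2 had -1.15, -0.86, -0.66 and -0.88. The remaining DELLA gene, RGL3, had 4.65, 2.92 and 3.85 CPM without and 4.42, 5.05 and 5.04 CPM with riboflavin, so its libraries overlapped. Its log2 fold change of 0.34 was called (edgeR quasi-likelihood, adjusted p = 0.0334) but not with DESeq2 or upper quartile scaling (adjusted p = 0.113 and 0.0801). It was not called without Col-0 replicate B or C or without riboflavin replicate B or C (adjusted p = 0.253, 0.06, 0.093 and 0.0914). The receptor GID1B rose by 1.22, and GASA6, a gibberellin-regulated peptide, went from 264, 269 and 269.9 CPM to 51.7, 51.4 and 50.4 CPM. Cytokinin genes had 13 of 27 lower and 8 higher, with a median of -0.33 that was -0.06 over the 24 with a mean count of at least 50. The oxidase CKX5, which degrades cytokinin, fell from 11.8, 13.1 and 12.8 CPM to 2.82, 2.79 and 3.23 CPM. Of 6 tested CKX genes, a group formed after the data were seen, 4 were lower, 1 higher and 1 not called. CRF6, a cytokinin response factor, rose from 18.2, 18.8 and 18.3 CPM to 73.2, 75.4 and 74.2 CPM.

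Cold, DNA damage and copper lists had no common direction. In the cold regulon 5 genes were higher and 6 lower of 11. The regulators CBF1, CBF2 and CBF3 had -2.60, -1.79 and -1.16, and as tandem copies they may share reads, while the cold-induced KIN1, KIN2 and LTI30 rose by 1.70, 1.43 and 1.30. CBF1 had 10.9, 9.70 and 11.3 CPM without and 1.51, 1.83 and 1.91 CPM with riboflavin. In the DNA damage response 6 were higher, 9 lower and 4 not called of 19. The factors ANAC044 and ANAC085, which hold the cell cycle after damage, rose by 2.17 and 3.36. ANAC085 had 5, 5 and 4 counts in untreated libraries and passed the filter on low counts only through the treated ones. The repair gene BARD1 had -1.59 and the kinase WEE1 -1.26. Copper and metal genes had 7 higher, 6 lower and 4 not called of 17. The superoxide dismutase CSD1 of the cytosol rose by 0.49, and the plastid CSD2 and FSD1 fell by 0.62 and 0.94.

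Among transcription factor families, NAC factors had 40 of 67 higher and 10 lower, with 22 at least doubled and a median of 0.59. NAC13, a membrane-bound factor of mitochondrial signalling, went from 12.3, 12.4 and 12.3 CPM to 102, 110.4 and 106 CPM. WRKY factors had 27 of 56 higher and 13 lower, with a median of 0.17. WRKY6 rose from 17.9, 18.8 and 18.4 CPM to 83.0, 99.3 and 100.3 CPM, and WRKY49 fell from 6.17, 7.21 and 7.98 CPM to 0.826, 0.529 and 1.08 CPM. B-box factors, many of them partners in light signalling, had 9 of 18 lower and 5 higher, and AT2G47890 among them rose from 6.91, 6.88 and 7.42 CPM to 62.4, 63.0 and 61.5 CPM.

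Genes with the domain DUF295 had the highest median of 273 annotation families with at least 10 tested genes. The 12 annotated as hypothetical proteins with this domain had 11 higher and 0 lower, 9 at least doubled, and a median of 2.32. A family picked from the top of a ranking is described here with no test. Most of the 12 passed the filter on low counts only through the treated libraries. AT5G54450, for example, had 0, 1 and 0 counts in untreated libraries, and AT5G54550 had 1, 3 and 4. For such genes the filter itself favours a higher call, so the counts, medians and rank of this domain lean upwards. Counting every gene whose annotation names the domain, a group formed after the data were seen, 16 of 22 were higher and 2 lower, with a median of 1.12. The 13 on chromosome 5 had 12 higher and 0 lower with a median of 2.25, and the 9 on other chromosomes had 4 higher and 2 lower with a median of 0.14. AT5G55150 (AT5G55150, TAIR10.1 chromosome 5, 22382202 to 22383392) had 4, 6 and 2 counts without and 241, 281 and 283 counts with riboflavin. The difference was 6.08 ± 0.203 on the log2 scale (adjusted p = 5.39e-20, edgeR quasi-likelihood test). The approximate standard error is likely too small at these counts. AT5G52940 had 5, 7 and 7 counts in untreated and 318, 290 and 304 in treated libraries, and AT5G52930 rose by 2.39. These genes are related copies with few reads in untreated seedlings, and the split of reads among copies is uncertain.

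Other genes among the 15 highest were SUC7, a sucrose symporter with close paralogs, at 7.24, the cytochrome P450 CYP76C2 at 5.92, ELI3-2, annotated as a cinnamyl alcohol dehydrogenase, at 6.35, and the factor DREB19 at 6.25. The 10 largest rises of the authors' mean TPM included AT1G73120, annotated as an F-box/RNI protein, from 260.5 to 3432 TPM, the ascorbate peroxidase APX1 from 936 to 5081 TPM and the epoxide hydrolase SEH from 224 to 1588 TPM. AT1G73120 had 90.2, 95.7 and 92.2 CPM in untreated and 1241, 1255 and 1233 CPM in treated libraries. The 10 largest falls of that mean included AT1G09310, a DUF538 protein, from 2162 to 813 TPM.

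The other lists are given by their counts. Calmodulin-like and EF-hand proteins had 43 higher and 30 lower of 91, with a median of 0.11. Late embryogenesis abundant proteins had 27 higher and 26 lower of 69, and glutaredoxins and thioredoxins 42 and 42 of 107. Genes annotated as histones or their modifiers had 30 higher and 39 lower of 91. Subunits of the vacuolar ATPase had 4 higher and 7 lower of 16, with a median of -0.07.

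Of the lists of cell type markers, that of leaf mesophyll moved furthest, but it holds only 2 genes, both of photosynthesis. CAB1 and RBCS1A had -1.70 and -1.70, and their sum went from 17898 to 18598 CPM in untreated to 5573 to 5682 CPM in treated libraries. Root hair markers had 4 of 6 lower and 1 higher with a median of -0.33, and a sum of 77.3 to 92.4 against 69.8 to 70.7 CPM. Root tip markers had 2 of 5 lower and 1 higher with a median of -0.36, and guard cell lineage markers 3 of 5 lower and 0 higher with -0.26. Phloem markers had 3 of 5 higher and 1 lower with a median of 0.12, and trichome and hair patterning markers 2 of 3 lower and 0 higher with -0.44. The number called lower changed when single libraries were left out, to 2 without Col-0 replicate C for root hair, 1 without riboflavin replicate C for root tip and, for trichome markers, 1 without Col-0 replicate B and 3 without riboflavin replicate B. For guard cell lineage markers it was 2 without Col-0 replicate B, riboflavin replicate B or riboflavin replicate C, where MYB60 lost its call, and 4 without Col-0 replicate C, where TMM gained one. Their part in the results above was not tested.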

How the data were processed

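RNA of whole seedlings was sequenced in 9 libraries, 3 a group, called biological replicates in the labels. The authors deposited expected counts and TPM per gene; Bowtie2, RSEM, DESeq2 and TAIR10 are named in the submitters' processing notes, whereas the text on the study's design names SOAPnuke 1.5.2 and HISAT2 2.0.4. The log2 fold changes, p-values and q-values that the authors deposited beside them, per the file headers, were not used here.

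Of the expected counts deposited, 1.9% were not whole (tolerance 1e-06), and all were rounded. Depth was 20677747 to 21421418 counts a library, and 0 organelle genes were in the table. Genes were filtered with filterByExpr (minimum count 10, total 15), scaled by TMM (factors 0.986 to 1.02) and tested two-sided with edgeR 4.0.16 (quasi-likelihood, prior count 0.125) in R 4.3.3, with Benjamini-Hochberg adjustment over all 20356 genes and a threshold of 0.05. CPM is on the TMM scale. Direct comparisons with the mutant came from 1 fit of all 9 libraries. DESeq2 1.42.0, other scalings and filters and leaving out each library were alternatives. Column letters could not be tied to single samples, so 1 measure per library was read, the counts; TPM was read only as the group means that the authors deposited, and 12 per-library TPM columns were not used.

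The members and lists were chosen with earlier results of these data known. Of 514 listed loci, 512 were in the table and 20 list loci were not tested. Genes were named where the higher group averaged 100 counts or more and groups did not overlap, up to 3 a direction and list. The 15 highest and 15 lowest fold changes, the 10 largest rises and falls of the authors' mean TPM and families of at least 10 tested genes were added, and members of the lists were also described by role. Among the DUF295 genes, some below that minimum were named to show their low counts. On simulated data for this comparison (20063 genes, 50 changed genes a fold), 74% of 1.25-fold, 96% of 1.5-fold and 100% of 2-fold and 4-fold changes were recovered, and 16 unchanged genes were called. The changed genes were drawn from better covered ones and were few, whereas most genes were called in the data. These rates therefore do not carry over to the calls reported here. Promoter windows were read from the RefSeq TAIR10.1 genome after the data were seen.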

Additional observations from a re-analysis of the deposited data

How the results depend on the processing

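Upper quartile scaling gave 6710 genes higher and 8371 lower, so that 44.5% of calls were higher against 49.6% in the test reported. Leaving out each library in turn gave 7244 to 7324 genes higher and 7261 to 7408 lower. Column letters could not be matched to replicate numbers, and same-letter libraries deviated with correlations of -0.0253, -0.0149 and 0.0228, so the letters were not taken to pair samples; a replicate block on the letters gave 7466 higher and 7568 lower. The planned test with limma on TPM was not run, because per-library TPM was not used. DESeq2 called 2 root hair markers lower against 4, and 1 root tip marker against 2. With libraries left out these counts were 2 to 4 (2 without Col-0 replicate C) and 1 to 2 (1 without riboflavin replicate C). Trichome markers called lower were 1 with a mean count of at least 50 against 2, and 1 to 3 with libraries left out (1 without Col-0 replicate B). A mean count of at least 50, which tests fewer genes, gave 8 SAUR genes lower against 36, 3 growth-regulating factors lower against 5 and 17 late embryogenesis proteins higher against 27. That filter also moved some list medians towards 0. They went from -0.81 to -0.00 for SAUR genes, from -0.50 to -0.07 for B-box factors and from -0.33 to -0.06 for cytokinin. Those of brassinosteroid, TCP factors and abscisic acid went from -0.31 to -0.12, from -0.32 to -0.20 and from 0.72 to 0.50. The median of NAC factors rose from 0.59 to 0.86. The medians of the gibberellin, copper, histone, suberin, cellulose, thioredoxin, late embryogenesis and trehalose lists changed sign with at least 1 setting (for cellulose, without Col-0 replicate B). For the other differences the cause was not tested. Of 682 named genes, 656 kept their direction and side of the threshold with DESeq2 and 657 with upper quartile scaling, and none changed direction past the threshold. Few reads limit BGLU28, BIP3 and the DUF295 genes, whose fold changes depend on a few counts in untreated libraries. They also limit SAUR genes, where most calls were lower and the smaller counts were in treated libraries.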
